A study of Mus musculus with 2 samples.

Results

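The cells described here are helper T cells that carried RNA of Il21, the gene of interleukin 21, but no RNA of Cxcr5, the chemokine receptor that takes T cells into B cell follicles. They were defined by their UMIs (unique molecular identifiers, each standing for 1 captured RNA molecule): at least 1 of Il21, 0 of Cxcr5, 0 of Trdc, the constant gene of the γδ T cell receptor, and at least 1 over the CD3 genes Cd3d, Cd3e and Cd3g, in a barcode where 200 or more genes were seen and mitochondrially encoded (mt-) genes gave no more than 10% of the UMIs. There were 243 such cells among 5638 T cells that met the other limits, out of 6859 barcodes kept and 7396 deposited. The control library held 103 of them and the Id2-deficient library 140. They are called Il21+ Cxcr5- cells below. They were compared with 230 Il21+ Cxcr5+ cells (58 control and 172 Id2-deficient) and with 4555 Il21- Cxcr5- cells (3548 and 1007) that met the same other limits.

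Both libraries came from CD4+ YFP+ cells, sorted when experimental autoimmune encephalomyelitis had reached its peak after immunization with MOG/CFA. The control was Il17Cre/R26YFP and the Id2-deficient group Il17Cre/Id2f/f/R26YFP, so both groups carry a Cre driven from Il17 and a YFP reporter in the Rosa26 locus, and the second also carries floxed Id2. The reporter marks cells that have used the Il17 promoter at some time, and Id2 can be deleted only in such cells. There was 1 library per genotype. The number, age and sex of the mice, whether they were pooled and which exons of Id2 are floxed are not stated in the labels. The sample titles name DLN, other labels name both spleen and lymph node, and the protocol names spleen. With 1 library per genotype no difference between libraries has a replicate check, and none was tested. All intervals are 95% intervals, exact Poisson for levels, Clopper-Pearson for shares and conditional binomial for ratios, and cover counting error only.

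Interleukin 21 is a cytokine of activated CD4 T cells that acts on B cells in the germinal centre and also, through STAT3, on the T cells that make it. Follicular helper T (Tfh) cells make it together with CXCR5, the receptor PD-1 (Pdcd1) and the transcription factor BCL6, and Th17 cells, which make interleukin 17, can make it too. T cells with PD-1 and interleukin 21 but without CXCR5 have been described at inflamed sites outside follicles and are called peripheral helper T cells. Id2 is an inhibitor that keeps E proteins from their sites on DNA, the E boxes, and E proteins take part in the Tfh program.

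The regulatory sequences of 3 genes that the results turn on are shown first, from RefSeq on build GRCm38.p6, each from 250 bases before to 50 bases after a start site and each on the minus strand. The window of Il21 is chr3:37232587-37232886 and is shown because its RNA chose the cells. E boxes (CANNTG) are in capitals, at -213 and -185 from the start.
Il21: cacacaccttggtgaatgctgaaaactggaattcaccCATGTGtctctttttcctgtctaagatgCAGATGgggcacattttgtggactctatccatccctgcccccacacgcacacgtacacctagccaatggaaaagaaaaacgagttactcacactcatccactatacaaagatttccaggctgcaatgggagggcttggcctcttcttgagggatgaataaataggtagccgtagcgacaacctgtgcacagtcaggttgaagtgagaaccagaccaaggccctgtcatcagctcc
The window of Pdcd1 is chr1:94052504-94052803, shown because Pdcd1 came first among the genes higher in Il21+ Cxcr5- than in Il21- Cxcr5- cells of both libraries, and it holds 0 E boxes.
Pdcd1: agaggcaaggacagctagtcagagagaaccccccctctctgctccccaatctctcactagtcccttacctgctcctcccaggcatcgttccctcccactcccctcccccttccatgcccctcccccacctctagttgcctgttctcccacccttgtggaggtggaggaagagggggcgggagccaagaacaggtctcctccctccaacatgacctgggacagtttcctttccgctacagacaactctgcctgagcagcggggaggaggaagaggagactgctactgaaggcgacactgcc
The window of Bcl6 is chr16:23981234-23981533, at start 2 of this gene, which lies inside the annotated gene. Matches to the STAT pattern TTCNNNGAA are in capitals, at -168, -122 and -88.
Bcl6: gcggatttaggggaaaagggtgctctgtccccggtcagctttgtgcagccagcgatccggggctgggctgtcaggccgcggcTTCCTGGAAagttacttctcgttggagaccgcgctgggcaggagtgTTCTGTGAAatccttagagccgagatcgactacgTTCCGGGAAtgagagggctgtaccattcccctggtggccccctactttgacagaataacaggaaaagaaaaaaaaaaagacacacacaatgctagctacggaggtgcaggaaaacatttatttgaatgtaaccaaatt
Windows were found for 8 of 11 leading genes. On either strand, CANNTG was in 72.3% of all 32851 windows, TTCNNNGAA in 8.30%, the NFAT core GGAAA in 61.3%, the AP-1 pattern TGANTCA in 7.81%, and the E box forms CAGCTG and CACCTG, which CANNTG includes, in 16.3% and 20.2%. The Il21 window also matched GGAAA at -201, -118 and -74. Start 1 of Bcl6 held 1 match to TTCNNNGAA and 1 E box. These matches describe the letters of the windows and say nothing of what was bound there.

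The label of these cells was first set against marker genes. Levels are given as CPM, the UMIs of a gene scaled to a total of 1000000 UMIs, summed over the cells of a class in 1 library, given as control and then Id2-deficient unless stated. All 10 T cell markers were seen in Il21+ Cxcr5- cells, at 7809 and 9114 CPM in sum, and Cd4 gave a UMI in 77 of 103 and 115 of 140 cells. Cd8a gave one in 0 and 2 cells. The T cell list includes Cd3d, Cd3e and Cd3g, and the γδ T cell list below includes Trdc. The rule used these genes, so both sums were set in part by it and are no separate support for the label. The defining B cell genes Ms4a1 and Ebf1 were at 0 in both libraries, Cd79a and Cd79b were seen in at most 2 cells each, and the summed B cell list, which includes Cd74, stood at 167 and 365 CPM. Myeloid markers summed to 594 CPM (8 of 8 seen) and 183 CPM (7 of 8 seen), γδ T cell markers to 11.5 and 20.4 CPM, NK cell markers to 15.6 and 22.1 CPM, and plasma cell markers to 83.4 and 87.5 CPM. In the Il21- Cxcr5- cells of the control library neutrophil markers summed to 1876 CPM and plasma cell markers to 1543 CPM, against 37.5 and 83.4 CPM in control Il21+ Cxcr5- cells. In the control, myeloid markers went the other way: their 594 CPM in Il21+ Cxcr5- cells, with 2 or more UMIs in 30 of 103 cells, stood beside 345 CPM in Il21- Cxcr5- and 126 CPM in Il21+ Cxcr5+ cells. One alternative left out barcodes with 2 or more UMIs over a few genes of other cell types, among them Cd79a, Lyz2, S100a8 and Hbb-bs. It kept 96 of 103 and 139 of 140 Il21+ Cxcr5- cells, and so also kept most of those with 2 or more UMIs of the whole B cell list (31 and 69 cells) or myeloid list (30 and 34 cells). With it the control comparison gave 1566 higher and 1475 lower genes at 1.5-fold, beside 1530 and 1418 with all cells. The part of the rest of the RNA of other cell types in the comparisons was not tested. The median Il21+ Cxcr5- cell had 6099 UMIs (2402 to 45447) in the control and 7177 UMIs (1679 to 57577) in the Id2-deficient library, and 1.84% and 3.94% of its UMIs came from mt- genes. In Il21- Cxcr5- cells the medians were 5407.5 and 6098 UMIs, with 1.71% and 4.15% from mt- genes. Of the barcodes, 3 occurred in both libraries.

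Il21 itself (ENSMUSG00000027718, chr3:37222759-37232636, GRCm38) chose the cells, so its values are a description. Most Il21+ Cxcr5- cells sat at the edge of the rule, with 1 Il21 UMI in 65 control (63.1%) and 85 Id2-deficient cells (60.7%). A further 20 and 25 cells had 2 UMIs, and 18 and 30 had 3 or more, up to 7 and 12. Cells just outside the rule on the other side were Il21+ cells with exactly 1 Cxcr5 UMI, which numbered 37 of 58 and 72 of 172. No Il21 UMI was seen in 39 control and 33 Id2-deficient B cells, which should lack it (exact upper bounds of 9.03% and 10.6% of cells). Of all barcodes with Il21, the mt- limit removed 0 control and 26 Id2-deficient ones, and 2 and 7 further cells without Cxcr5 were left out for a Trdc UMI.

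Il21+ Cxcr5- cells made up a larger share of the T cells in the Id2-deficient library. They were 2.63% (2.15% to 3.18%) of 3920 control T cells and 8.15% (6.90% to 9.54%) of 1718 Id2-deficient T cells. Because detection of a single UMI follows depth, every cell was also thinned to 2000 UMIs before the rule was applied. The shares were then 1.46% (60 of 4096 cells) and 5.82% (100 of 1718 cells), the number of T cells being set anew because CD3 and Trdc UMIs were thinned too. Without thinning, cells below 4000 UMIs gave 2.27% and 6.67%, cells of 4000 to 8000 UMIs 2.18% and 6.89%, and deeper cells 4.24% and 11.8%. Il21+ Cxcr5+ cells went the same way, at 1.48% and 10.0% before thinning and 0.366% and 1.75% after it.

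Among Il21+ cells, the share without Cxcr5 RNA was higher in both libraries after thinning. Over bins of depth it fell in the Id2-deficient library and rose in the control, with intervals that overlapped within each library. It was 64.0% (56.0% to 71.4%) in the control and 44.9% (39.3% to 50.6%) in the Id2-deficient library before thinning, and 80.0% and 76.9% after thinning to 2000 UMIs. In Id2-deficient cells it was 68.8% (11 of 16) below 4000 UMIs, 46.9% (76 of 162) from 4000 to 8000 UMIs and 39.6% (53 of 134) above that. In control cells the same bins gave 55.2% (16 of 29), 65.0% (52 of 80) and 67.3% (35 of 52). Cxcr5 was also seen in Il21- T cells, in 5.61% of control and 28.4% of Id2-deficient ones, and in 2.98% and 12.6% after thinning. How many Il21+ Cxcr5- cells held Cxcr5 RNA that was not captured was not measured.

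**Figure D1:**
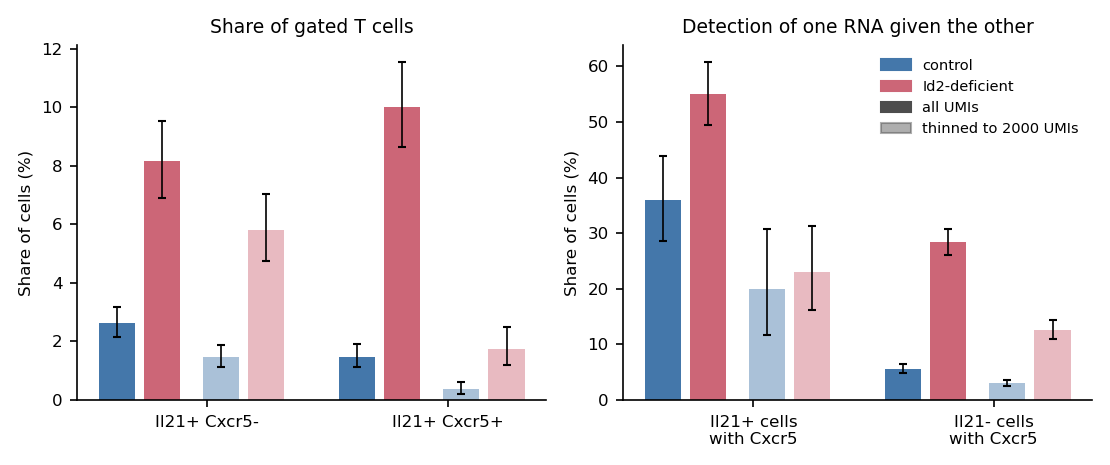
Shares of cells by library, in percent, with all UMIs (dark bars) and after thinning to 2000 UMIs (pale bars); error bars are Clopper-Pearson intervals. The left panel shows Il21+ Cxcr5- and Il21+ Cxcr5+ cells among T cells, both higher in the Id2-deficient library, and the right panel shows that Cxcr5 was seen more often in cells with Il21 than in cells without it, at 36.0% against 5.61% in the control and 55.1% against 28.4% in the Id2-deficient library.

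Most of the measured transcription factor and receptor genes of Tfh cells were higher in Il21+ Cxcr5- than in Il21- Cxcr5- cells of the control library, and fewer were in the Id2-deficient library. A gene was counted as measured with at least 50 UMIs over both classes, and as higher or lower at a CPM ratio of at least 1.5-fold in either direction. In the control library 16 of 23 measured genes of the list of Tfh regulators and receptors were higher and 1 lower, and their median log2 ratio was 1.08. Over all 10146 measured genes 15.1% were higher and 14% lower, with a median of 0.07. The Id2-deficient library had 10 of 22 genes higher and 1 lower, a median of 0.50, against 8.71% higher, 9.52% lower and a median of 0.03 over all 8484 measured genes. A gene near 50 UMIs can pass 1.5-fold by counting error alone. Il21+ Cxcr5- cells held 959081 UMIs against 23787221 in Il21- Cxcr5- cells of the control, and 1223009 against 6778128 in the Id2-deficient library. The shares over all genes therefore include counting error, to an unlike extent in the libraries, and were not compared between them.

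Pdcd1 (chr1:94038305-94052553), which encodes the inhibitory receptor PD-1, stood at 155 CPM in control Il21+ Cxcr5- cells and at 21.5 CPM in the Il21- Cxcr5- cells, a log2 ratio of 2.85 (2.58 to 3.12). Its Id2-deficient levels were 125 and 43.2 CPM, a log2 ratio of 1.53 (1.24 to 1.82). A Pdcd1 UMI was seen in 44.7% and 42.9% of Il21+ Cxcr5- cells, and after thinning in 21.4% against 3.97% and in 20.1% against 6.33% of cells. Levels in the Il21+ Cxcr5- cells were thus close to each other in the libraries, and the smaller ratio in the Id2-deficient library went with a higher level in its Il21- Cxcr5- cells. Bcl6 (chr16:23965052-23988852), the transcriptional repressor that directs Tfh development, was at 31.3 CPM against 6.22 in the control, a log2 ratio of 2.33 (1.71 to 2.90). It was at 44.2 CPM against 11.8 in the Id2-deficient library, a log2 ratio of 1.90 (1.38 to 2.42). Tox2, a nuclear factor of Tfh cells, was at 80.3 against 15.0 CPM and at 86.7 against 41.3 CPM (log2 ratios of 2.42 and 1.07).

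The costimulatory receptor gene Icos (chr1:60977927-61000320) was at 289 against 112 CPM in the control, a log2 ratio of 1.37 (1.19 to 1.55). The Id2-deficient levels were 507 against 215 CPM, a log2 ratio of 1.24 (1.10 to 1.38). Maf, a transcription factor gene needed for Il21 expression, had smaller ratios, at 427 against 278 CPM and 715 against 440 CPM (0.62 and 0.70). The signalling adaptor gene Sh2d1a was at 341 against 145 CPM in the control (log2 ratio 1.23) and at 368 against 256 CPM in the Id2-deficient library (0.52). Slamf6, a receptor that signals through this adaptor, was higher in the control (195 against 115 CPM, log2 ratio 0.76) and near equal in the other library (352 against 340 CPM, 0.05). The receptor gene Il21r was near equal in both libraries, with log2 ratios of -0.13 (-0.70 to 0.40) and 0.26 (-0.10 to 0.60). Selplg, the gene of the selectin ligand PSGL-1 that Tfh cells lose, was the lower member in both, at 149 against 372 CPM and 126 against 276 CPM (-1.32 and -1.13).

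Set beside Il21+ Cxcr5+ cells, some of the same genes, Pdcd1, Bcl6 and Tox2 among them, had lower levels in Il21+ Cxcr5- cells, and most did not pass 1.5-fold in either direction in the Id2-deficient library. Of 20 measured Tfh genes 2 were higher and 9 lower in the control (median log2 ratio -0.53; 7.83% higher, 7.29% lower and a median of -0.03 over 3677 measured genes). In the Id2-deficient library 2 of 22 were higher and 6 lower (median -0.29; 3.99%, 7.11% and -0.06 over 6122 measured genes). Over all genes that library's 244 higher and 435 lower genes became 326 and 329 when ratios were centred on their median, and 305 and 356 when mt- and ribosomal protein genes were left out of the totals. Pdcd1 had a log2 ratio of -1.07 in both libraries (327 and 263 CPM in Il21+ Cxcr5+ cells). Bcl6 had -1.70 and -0.85 (102 and 79.5 CPM) and Tox2 -0.74 and -0.92 (134 and 164 CPM). Icos had 0.06 and 0.45, so it was not among the lower genes. For these genes Il21+ Cxcr5- cells lay between the Il21- Cxcr5- and Il21+ Cxcr5+ classes except for Icos, which was at 289 CPM against 278 CPM in Il21+ Cxcr5+ cells of the control and 507 CPM against 371 CPM in the other library. Cxcr5 chose the classes, and lost UMIs can move a cell only from the Cxcr5+ into the Cxcr5- class, so the Il21+ Cxcr5- cells include an unknown number of cells with Cxcr5 RNA and these levels are a description.

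**Figure D2:**
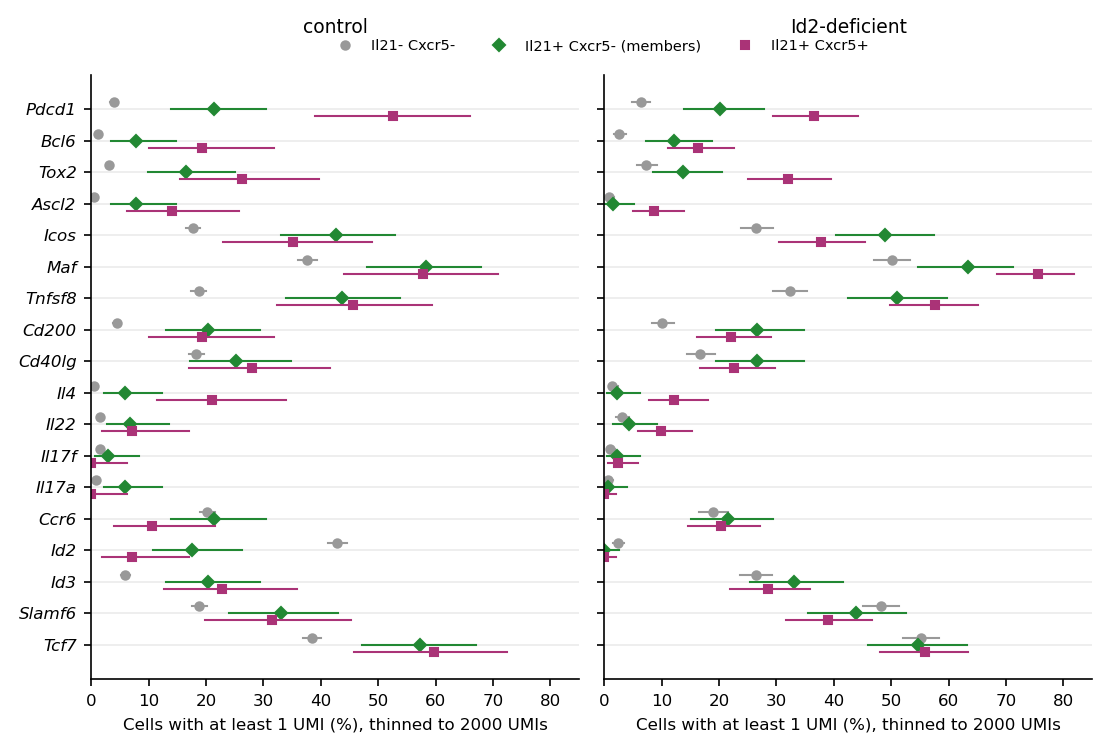
Share of cells with at least 1 UMI of each gene, in percent, after thinning every cell to 2000 UMIs, in the control (left) and Id2-deficient (right) library; points are Il21- Cxcr5- (grey), Il21+ Cxcr5- (green, the cells described) and Il21+ Cxcr5+ cells (purple), and lines are Clopper-Pearson intervals. Pdcd1 was seen in 3.97%, 21.4% and 52.6% of control cells of these classes, whereas for Icos the Il21+ Cxcr5- cells came first, at 42.7% against 17.7% and 35.1%.

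Genes of ligands and cytokines through which T cells help B cells were higher in Il21+ Cxcr5- than in Il21- Cxcr5- cells, with 5 of 8 measured genes higher and 0 lower in the control and 4 of 7 higher and 0 lower in the Id2-deficient library (median log2 ratios of 1.21 and 0.80). The control median was 0.27 when each gene's cell with the most UMIs was left out, and 0.70 over genes with at least 200 UMIs. The list holds 15 genes, and the others gave too few UMIs. Over all measured genes 15.1% were higher and 14% lower in the control, and 8.71% and 9.52% in the Id2-deficient library. Tnfsf8, which encodes CD30 ligand, was at 371 against 113 CPM and 630 against 261 CPM (log2 ratios of 1.71 and 1.27). Cd40lg, the gene of the CD40 ligand that B cells need, was at 153 against 94.4 CPM and 173 against 94.7 CPM (0.70 and 0.87). Both Tnfsf8 and Cd40lg were near their levels in Il21+ Cxcr5+ cells, at 377 and 156 CPM in the control and 591 and 133 CPM in the other library. Il4, the gene of a cytokine of germinal centre Tfh cells, set the Il21+ classes apart. It stood at 34.4 CPM in Il21+ Cxcr5- and 131 CPM in Il21+ Cxcr5+ cells of the control, a log2 ratio of -1.93 (-2.61 to -1.28). The Id2-deficient levels were 18 and 73.7 CPM, a log2 ratio of -2.03 (-2.76 to -1.37). An Il4 UMI was seen in 14 of 103 and 14 of 140 Il21+ Cxcr5- cells, and 11 and 12 of these also had one of Pdcd1. Il4 in Il21- Cxcr5- cells was at 3.36 and 6.34 CPM.

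The Th17 program of Il21+ Cxcr5- cells went both ways. Against Il21- Cxcr5- cells 12 of 22 measured genes were higher and 4 lower in the control, and 7 of 19 were higher and 3 lower in the Id2-deficient library. The median log2 ratios of the list were 0.62 and 0.24. Of all measured genes 15.1% were higher and 14% lower in the control, and 8.71% and 9.52% in the Id2-deficient library. Rora, a nuclear receptor gene of Th17 cells, was lower in both libraries, at 94.9 against 171 CPM and 87.5 against 162 CPM (-0.85 and -0.89). The chemokine receptor gene Ccr6 was at 141 against 130 CPM and 168 against 117 CPM (0.11 and 0.52), and gave a UMI in 55 of 103 and 61 of 140 cells. Il1r1, the receptor through which interleukin 1 acts on Th17 cells, was at 62.6 against 32.9 CPM and 82.6 against 37.9 CPM (0.93 and 1.12). Batf, an AP-1 factor gene of both Th17 and Tfh cells, had log2 ratios of 1.25 and 0.67.

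For the Th17 cytokine genes, single cells carried much of the sum. The control cell with the most UMIs (45447) held 420 of 465 Il22, 172 of 206 Il17f and 33 of 48 Il17a UMIs of its class. With it the class stood at 485 CPM for Il22, 215 CPM for Il17f and 50 CPM for Il17a, and without it at 49.3, 37.2 and 16.4 CPM. The Il21- Cxcr5- cells of that library stood at 11.0, 11.5 and 6.22 CPM. Id2-deficient Il21+ Cxcr5- cells stood at 45.8 CPM for Il22, 64.6 CPM for Il17f and 7.36 CPM for Il17a, and at 40.3, 39.6 and 4.09 CPM without the top cell of each gene, beside 19.0, 11.8 and 5.16 CPM in Il21- Cxcr5- cells. Counted as cells, Il22 was seen in 17.5% and 14.3%, Il17f in 11.7% and 7.86% and Il17a in 5.83% and 2.14% of Il21+ Cxcr5- cells. In Il21- Cxcr5- cells the shares were 4.00% and 9.33% for Il22, 3.72% and 3.48% for Il17f, and 1.89% and 1.49% for Il17a. After thinning, Il22 was left in 6.80% and 4.32% of Il21+ Cxcr5- cells, against 1.59% and 3.11% of Il21- Cxcr5- cells. B cells gave 0 UMIs of these 3 genes. In Id2-deficient Il21+ Cxcr5+ cells Il22 was at 136 CPM, above the 45.8 CPM of Il21+ Cxcr5- cells (log2 ratio -1.57, -2.02 to -1.14). How far single cells carried the sum of the Il21+ Cxcr5+ class is not reported here.

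Th17 cytokines and Tfh genes were seen together in some of the cells. At least 1 UMI of Il17a, Il17f or Il22 was present in 28 control (27.2%) and 27 Id2-deficient cells (19.3%), and at least 1 of Pdcd1, Bcl6 or Tox2 in 62 (60.2%) and 88 (62.9%). Cells with both numbered 19 and 18, cells with only the cytokines 9 and 9, cells with only the Tfh genes 43 and 70, and cells with neither 32 and 43. The Tfh genes were seen in 19 of 28 control cells with a Th17 cytokine (67.9%, 47.6% to 84.1%) and in 43 of 75 without (57.3%, 45.4% to 68.7%). Among Id2-deficient cells these were 18 of 27 (66.7%, 46.0% to 83.5%) and 70 of 113 (61.9%, 52.3% to 70.9%). The intervals overlap in each library, but overlap is not a test, and cells of 1 library are not replicates. These shares were not thinned, so they can also follow depth. Whether detection of the cytokines and of the Tfh genes goes together or excludes each other was not tested. These groups of genes were chosen after the data were seen.

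Genes of Th1 and cytotoxic cells were lower in control Il21+ Cxcr5- than in control Il21- Cxcr5- cells, and most of those measured in the Id2-deficient library did not pass 1.5-fold. Of 22 measured genes in the control 0 were higher and 18 lower than in Il21- Cxcr5- cells, and their median log2 ratio was -1.70. Of these, 6 were at 0 UMIs in the smaller class, and with such genes set to 3 UMIs 17 were lower and the median was -1.12. Id2-deficient cells had 0 of 13 higher and 5 lower, and a median of -0.24. Of all measured genes 15.1% were higher and 14% lower in the control, and 8.71% and 9.52% in the Id2-deficient library. Nkg7, a cytotoxic granule gene, was at 25.0 against 203 CPM in the control, a log2 ratio of -3.02 (-3.66 to -2.44). Its Id2-deficient levels were 9.81 against 23.3 CPM, a log2 ratio of -1.25 (-2.23 to -0.40). Cxcr6, a receptor of effector T cells, was at 188 against 393 CPM and 102 against 121 CPM (-1.06 and -0.24). Ifng, the gene of interferon γ, was seen in 7 of 103 control and 1 of 140 Id2-deficient cells, beside 10.2% and 1.19% of Il21- Cxcr5- cells. Compared with Il21+ Cxcr5+ cells the list went the other way, with 6 of 7 measured genes higher and 1 lower in the control and 3 of 6 higher and 0 lower in the Id2-deficient library. There Il18r1, a receptor chain for interleukin 18, was at 191 against 66.9 CPM and 204 against 55.7 CPM (1.51 and 1.87). All measured genes gave 7.83% higher and 7.29% lower in that comparison of the control, and 3.99% and 7.11% in the Id2-deficient library.

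The genes of recirculation were lower than in Il21- Cxcr5- cells as well. Of the naive, memory and recirculation list, 3 of 17 measured genes were higher and 9 lower in the control, and 0 of 18 higher and 9 lower in the Id2-deficient library (medians of -0.59 and -0.54). Over all genes the shares were 15.1% higher and 14% lower, and 8.71% and 9.52%. Klf2, the factor that maintains exit receptors, stood at 409 against 1299 CPM in the control, a log2 ratio of -1.67 (-1.82 to -1.52). Id2-deficient cells had 132 against 519 CPM, a log2 ratio of -1.98 (-2.22 to -1.75). S1pr1, the receptor for exit from lymphoid tissue, had log2 ratios of -1.33 and -1.80, and Il7r, a survival receptor of resting T cells, -1.29 and -1.44. In Il21+ Cxcr5+ cells Klf2 and Il7r were lower still. Klf2 there was at 149 and 36.0 CPM and Il7r at 134 and 58.0 CPM, against 336 and 188 CPM for Il7r in Il21+ Cxcr5- cells. Set beside Il21+ Cxcr5+ cells, the whole list had 4 of 11 measured genes higher and 2 lower in the control (median -0.36). In the Id2-deficient library 5 of 14 were higher and 1 lower (median 0.51). All measured genes gave 7.83% higher and 7.29% lower in the control, and 3.99% and 7.11% in the Id2-deficient library. Tcf7, the gene of the memory and Tfh factor TCF1, differed little, with log2 ratios to Il21- Cxcr5- cells of 0.40 and -0.23.

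Genes turned on by the T cell receptor were in large part higher than in Il21- Cxcr5- cells. Of this list 14 of 25 measured genes were higher and 1 lower in the control, and 13 of 25 higher and 2 lower in the Id2-deficient library (medians of 0.66 and 0.63). The shares over all genes were 15.1% higher and 14% lower, and 8.71% and 9.52%. Egr2, an early growth response factor, was at 38.6 against 3.15 CPM in the control, a log2 ratio of 3.61. Among Id2-deficient cells it was at 80.9 against 7.82 CPM, a log2 ratio of 3.37. The orphan nuclear receptor gene Nr4a1 was at 48.0 against 4.50 CPM and 59.7 against 10.9 CPM (3.41 and 2.45), and the factor gene Irf4 at 27.1 against 6.43 CPM and 51.5 against 10.6 CPM (2.08 and 2.28). They were carried by few cells, since an Egr2 UMI was seen in 14 of 103 and 31 of 140 cells. In control cells with 1, 2 and at least 3 Il21 UMIs, Nr4a1 was seen in 4 of 65, 5 of 20 and 3 of 18. Its levels in these groups, chosen after the data were seen, were 8.37, 49.3 and 126 CPM. In the Id2-deficient library Irf4, Egr2 and Nr4a1 were also above Il21+ Cxcr5+ cells, which stood at 12.2, 20.9 and 26.1 CPM (2.08, 1.95 and 1.19). In the control the ratio of Nr4a1 to Il21+ Cxcr5+ cells was 1.47, and Egr2 and Irf4 gave too few UMIs for this comparison.

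The list of regulators of Il21 itself (STAT3, AP-1 and NFAT) gave 6 of 20 measured genes higher and 2 lower in the control, and 6 of 19 higher and 2 lower in the Id2-deficient library, with medians of 0.26 and 0.23. All measured genes gave 15.1% higher and 14% lower, and 8.71% and 9.52%. Nfatc1, a calcium-dependent factor, was at 117 against 48.2 CPM and 209 against 85.3 CPM (1.28 and 1.3). Il6st, the shared receptor chain for interleukin 6, was at 36.5 against 8.62 CPM and 63.0 against 40.4 CPM (2.08 and 0.64). Stat3 was nearly the same in both classes (0.27 and 0.22), and Socs3, the inhibitor that STAT3 induces, was lower, at 33.4 against 67.6 CPM and 63.8 against 122 CPM (-1.02 and -0.93). Dissociation stress genes, which share Jun and other factors with this list, had medians of -0.41 and -0.33.

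Across the whole table, 394 of 8466 genes measured in both libraries (4.65%) were higher in Il21+ Cxcr5- than in Il21- Cxcr5- cells in each library, and 303 (3.58%) were lower in each. Another 64 genes (0.756%) were higher in the control and lower in the Id2-deficient library, and 39 (0.461%) were the reverse. Some genes in each of these counts can have passed 1.5-fold by counting error alone. The 12 genes with the highest lower bounds over both libraries were Pdcd1, Icos, Nab2, Rilpl2, Tbc1d4, Nfatc1, Hif1a, Ptpn11, Stx11, Zfp36l1, Prkca and Tox2. Nab2, a partner that restrains EGR factors, had log2 ratios of 1.80 and 1.54. Tbc1d4, a regulator of glucose transporter traffic, was at 209 against 71.0 CPM and 321 against 139 CPM (1.55 and 1.21). Hif1a, the hypoxia factor, was at 455 against 213 CPM and 579 against 247 CPM (1.09 and 1.23), and Ptpn11, the phosphatase SHP2 that PD-1 recruits, at 122 against 46.6 CPM and 127 against 56.9 CPM (1.39 and 1.15). The 12 lowest were Selplg, Klf6, Lsp1, Atp1b3, S100a10, Rabac1, Ass1, Tagln2, Txk, Rora, S100a13 and Tmem71, which include the zinc finger factor gene Klf6 (-1.10 and -1.34) and the actin-binding gene Lsp1 (-0.91 and -0.87).

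**Figure D3:**
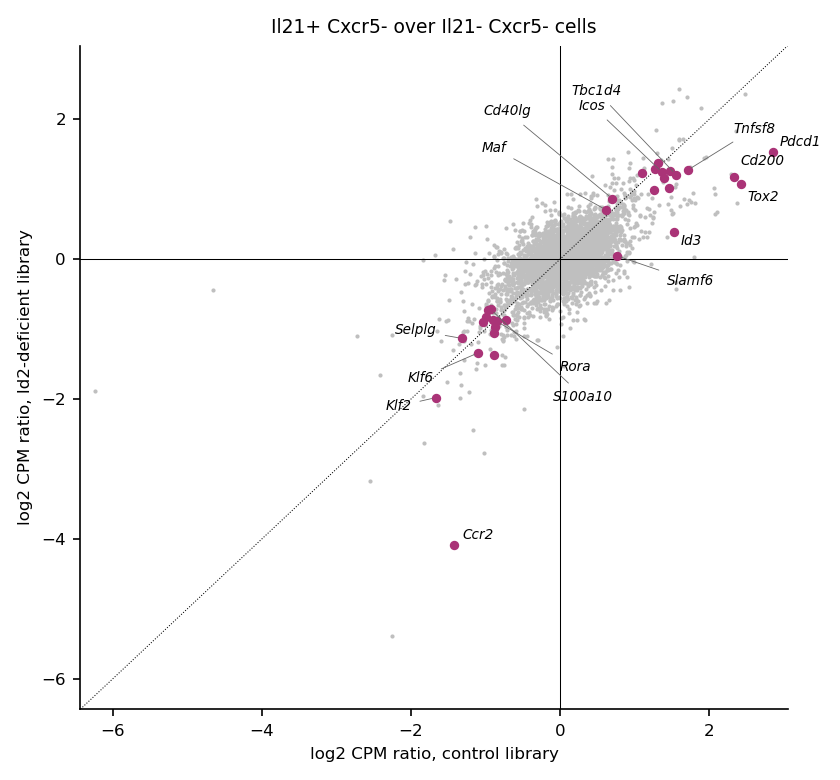
Log2 CPM ratio of Il21+ Cxcr5- over Il21- Cxcr5- cells in the control (x axis) and the Id2-deficient library (y axis) for 4684 genes with at least 200 UMIs in each comparison; grey dots are genes, purple dots the leading genes of the text, and the dotted line marks equal ratios. Pdcd1 lies at the upper right, at 2.85 and 1.53, and Klf2 to the lower left, at -1.67 and -1.98.

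The genes most like Il21 were those with the largest gain in share of thinned cells with a UMI, taking the smaller gain of the libraries. They were Icos, Bcl2a1b, Zfp36l1, Tbc1d4, Rgs10, Tnfsf8, Cd200, Ptprcap, Eea1 and Rap1a. Icos was seen in 42.7% of Il21+ Cxcr5- and 17.7% of Il21- Cxcr5- cells of the control, and in 48.9% and 26.5% in the Id2-deficient library. Bcl2a1b, a survival gene of the BCL2 family with near-identical copies whose reads may be split, was seen in 50.5% and 22.1% and in 45.3% and 24.5%. Rgs10, a regulator of G protein signalling, was seen in 60.2% and 33.7% and in 66.9% and 48.1%. Cd200, an inhibitory ligand of Tfh cells, was seen in 20.4% and 4.42% and in 26.6% and 10.0%. Since Il21 chose the cells, these shares are a description.

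Several other lists were examined. Their counts stand beside 15.1% higher and 14% lower over all genes in the control, and 8.71% and 9.52% in the Id2-deficient library. Inhibitory receptor genes were higher than in Il21- Cxcr5- cells in 6 of 11 and lower in 2 of 11 in the control, and 5 and 1 of 8 in the Id2-deficient library. Lag3, a receptor for MHC class II, had log2 ratios of 1.90 and 0.93, and Cd160 2.04 and 1.78. The peripheral helper T cell list, which shares Pdcd1, Icos, Maf, Sh2d1a, Slamf6 and Tox with the Tfh list, had 6 of 14 higher and 4 lower in the control and 4 of 11 higher and 1 lower in the Id2-deficient library. Ccr2, a receptor for migration into inflamed tissue that is on that list, was lower, at 100 against 269 CPM and 3.27 against 55.6 CPM (-1.43 and -4.09). Foxp3, the factor of regulatory T cells, gave 0 UMIs in 103 and 140 cells. Taken as 3 counts of the total, this allows a share of up to 2.91% and 2.14% of cells with a Foxp3 UMI and sets no limit on cells that express it. Ikzf2, which Tfh and regulatory cells share, was at 68.8 against 17.7 CPM and 146 against 53.0 CPM (1.96 and 1.46). Cell cycle genes were higher in 14 and lower in 0 of 20 in the control, and 13 and 3 of 20 in the Id2-deficient library. Their medians were 0.77 and 1.01, with Rrm2, a subunit for nucleotide synthesis, at 188 against 72.8 CPM and 154 against 32.8 CPM. When cells above 20000 UMIs (10 control and 7 Id2-deficient Il21+ Cxcr5- cells) were left out, a choice made after the data were seen, the Id2-deficient median was -0.72, and when the comparison cells were reweighted to the same depths, the medians were 0.23 and 0.17. Glycolysis genes gave 4 higher and 3 lower of 17 in the control and 4 higher and 1 lower of 16 in the Id2-deficient library.

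Interferon response genes were lower in 9 and higher in 1 of 20 measured genes in the control, and lower in 5 and higher in 0 of 20 in the Id2-deficient library (medians of -0.49 and -0.23). Of all genes 14% and 9.52% were lower. Igtp, an interferon-induced GTPase gene, was at 49.0 against 116 CPM in the control. In the Id2-deficient library Igtp was at 111 CPM, against 141 CPM in Il21- Cxcr5- and 57.4 CPM in Il21+ Cxcr5+ cells. There 8 of 16 measured interferon genes were higher than in Il21+ Cxcr5+ cells and 0 lower (median 0.55), among them Slfn1 (1.15, 0.85 to 1.46), Ifi203 (1.03, 0.81 to 1.26) and Bst2 (0.89, 0.58 to 1.21). In the control 0 of 10 were higher and 1 lower. Over all genes the shares of this comparison were 3.99% higher and 7.11% lower in the Id2-deficient library, and 7.83% and 7.29% in the control. The difference between libraries was not tested.

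**Figure D4:**
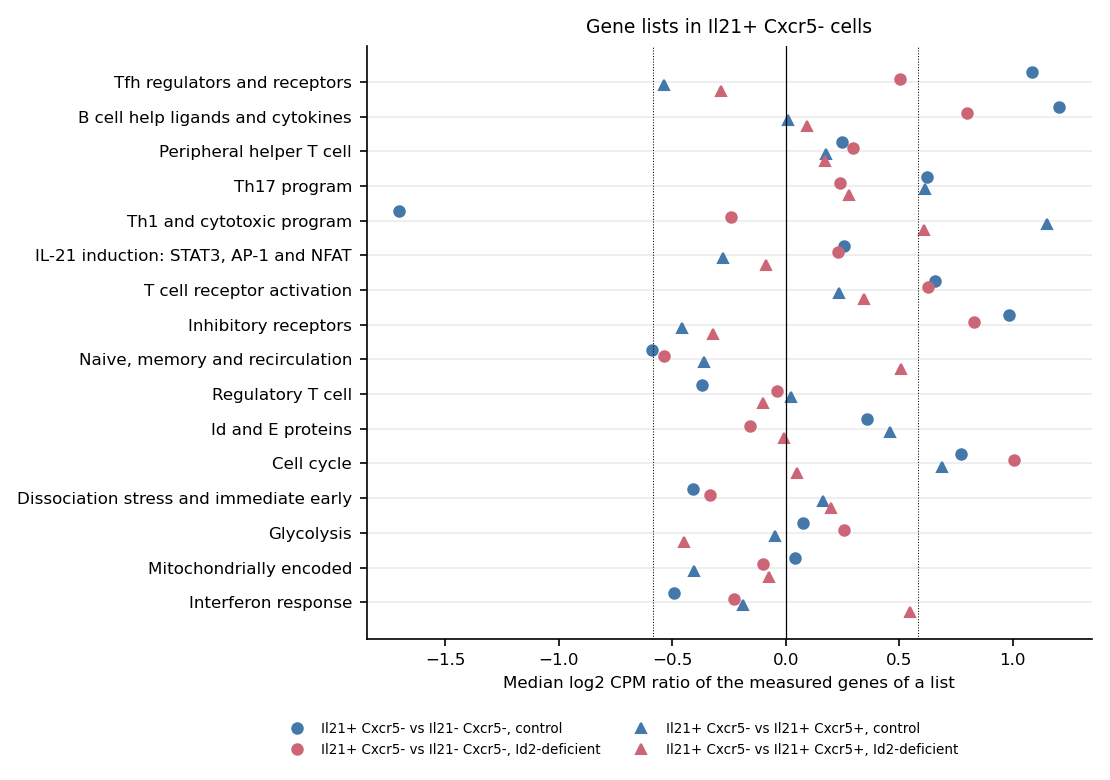
Median log2 CPM ratio of the measured genes of each list, for Il21+ Cxcr5- cells over Il21- Cxcr5- cells (circles) and over Il21+ Cxcr5+ cells (triangles), in the control (blue) and Id2-deficient library (red); dotted lines mark 1.5-fold. The Tfh list lies to the right for circles (1.08 and 0.50) and to the left for triangles (-0.53 and -0.29), and the Th1 list the other way round.

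The leading genes against Il21+ Cxcr5+ cells differed from the Tfh list in part. In the control the lowest were led by Rnaset2a, a ribonuclease gene (-1.07), Tbc1d4 (-1.05, at 209 against 431 CPM) and Ptpn11 (-1.13), with Pdcd1, Hif1a (-0.92) and the folate receptor-like gene Izumo1r (-0.94) among them. The highest were led by Lsp1 (0.91, at 560 against 297 CPM), with S100a10 (0.59) and Thy1 (0.76), a surface glycoprotein of T cells. In the Id2-deficient library the lowest included Pdcd1, Lpp (-1.10), the glycolytic enzyme gene Tpi1 (-0.98) and Tox2, and the highest included Ahnak (1.22), the lymphotoxin gene Ltb (0.78, at 998 against 582 CPM) and Selplg (0.92). Tbc1d4, Rnaset2a and Hif1a had smaller differences there, at -0.36, -0.78 and -0.46.

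Within the Il21+ Cxcr5- cells, those with more Il21 UMIs had higher shares or levels of Pdcd1, Egr2 and Tnfsf8 at 3 or more UMIs than at 1. Pdcd1 was seen in 35.4%, 55.0% and 66.7% of control cells with 1, 2 and at least 3 Il21 UMIs and in 32.9%, 52.0% and 63.3% of Id2-deficient cells. Depth went the same way, with median depths of 5506, 6339.5 and 8300.5 UMIs and of 6720, 7281 and 7577.5 UMIs. After thinning the Pdcd1 shares were 16.9%, 20% and 38.9% and 11.8%, 32.0% and 34.5%. Egr2 after thinning was seen in 4.62%, 10.0% and 16.7% and in 5.88%, 12.0% and 34.5% of cells. Tnfsf8 was at 320, 296 and 551 CPM and at 534, 533 and 929 CPM. Other genes did not all rise. In the control the thinned shares were 16.9%, 20% and 11.1% for Tox2, 21.5%, 25% and 11.1% for Id3, and 35.4%, 50% and 22.2% for Batf. In the Id2-deficient library these were higher at 3 or more UMIs than at 1 (24.1% against 10.6%, 34.5% against 31.8% and 34.5% against 23.5%). The groups hold 18 to 85 cells, and the split and all genes named for it were chosen after the data were seen.

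Between the libraries, Id2 (chr12:25093799-25097140), the targeted gene, was checked first. In Il21+ Cxcr5- cells it gave 158 UMIs (165 CPM) in the control and 6 UMIs (4.91 CPM) in the Id2-deficient library, in 38.8% and 2.14% of cells, a log2 ratio of -5.07 (-6.54 to -3.92). In Il21- Cxcr5- cells it stood at 335 and 20.2 CPM. The floxed exons are not named, so a library of 3′ ends checks the label only if the end of the transcript is lost. Within the control library Id2 was lower in Il21+ Cxcr5- than in Il21- Cxcr5- cells (-1.02, -1.26 to -0.80) and lower again in Il21+ Cxcr5+ cells, at 52.0 CPM. Its relative Id3 (chr4:136143497-136145755), which also binds E proteins, went the other way in the control, at 94.9 against 32.8 CPM (log2 ratio 1.53, 1.20 to 1.85) and 169 CPM in Il21+ Cxcr5+ cells. Id3 was high in all 3 Id2-deficient classes, at 260 CPM in Il21+ Cxcr5-, 199 in Il21- Cxcr5- and 180 in Il21+ Cxcr5+ cells. The E protein genes Tcf3 and Tcf12 were at 29.2 and 29.4 CPM and at 51.1 and 61.3 CPM in Il21+ Cxcr5- cells.

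Id2-deficient and control Il21+ Cxcr5- cells were then compared over all genes. Of 5055 measured genes 615 (12.2%) were higher and 643 (12.7%) lower in the Id2-deficient library, or 787 and 481 when mt- and ribosomal protein genes were left out of the totals. Of 20 measured Tfh genes 9 were higher and 0 lower, and their median log2 ratio was 0.51, against -0.05 over all genes. In Il21- Cxcr5- cells 19 of 23 were higher and 0 lower, with a median of 0.92, against 14.9% higher, 10.6% lower and a median of 0.05 over 10475 genes. Pdcd1 had a log2 ratio of -0.31 (-0.65 to 0.02) in Il21+ Cxcr5- cells and 1.01 (0.80 to 1.22) in Il21- Cxcr5- cells, and Tox2 0.11 and 1.46. Icos (0.81 and 0.94), Maf (0.74 and 0.66) and Tnfsf8 (0.76 and 1.20) were higher in both classes of the Id2-deficient library. Klf2 and Il7r were lower in both (-1.63 and -1.32, -0.84 and -0.69). Ccr2 was at 100 and 3.27 CPM in Il21+ Cxcr5- cells, a log2 ratio of -4.94 (-6.84 to -3.53). Whether the ratios differ between the classes was not tested.

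The leading genes of this contrast were in part ones that also mark the libraries. The 13 mitochondrially encoded genes had 11 higher and 0 lower, with a median of 1.06 in Il21+ Cxcr5- and 1.13 in Il21- Cxcr5- cells. AY036118 (2.24 and 2.34) and Gm42418 (1.59 and 1.71), which overlap on opposite strands (Gm42418 at chr17:39846958-39848788) and are uncertain for that reason, and Lars2 (1.61 and 1.75) also went together with the library in both classes. The part of RNA quality or handling in these values was not tested, and library and genotype cannot be told apart. Other leading genes were Id3 (1.45), the RNA-binding factor gene Zfp36l1 (1.13), Notch1 (1.43) and Xist (0.95), the RNA of the inactive X chromosome, which overlaps Tsix. Id3 had a higher ratio still in Il21- Cxcr5- cells, so it too went with the library in both classes. The ratios of Zfp36l1, Notch1 and Xist in Il21- Cxcr5- cells are not reported here. Gbp9 (1.95), an interferon-induced gene, overlaps Gbp4. On the low side were Tagln2 (-1.37), the arginine synthesis gene Ass1 (-1.35) and S100a10 (-0.98), each also lower in Il21- Cxcr5- cells (-1.22, -1.26 and -1.19). Interferon response genes were higher in 9 of 16 and lower in 0, with a median of 0.79. In Il21- Cxcr5- cells 9 of 20 were higher and 0 lower, with a median of 0.48, so this list was higher in both classes. Over all genes 12.2% were higher and 12.7% lower in Il21+ Cxcr5- cells, and 14.9% and 10.6% in Il21- Cxcr5- cells.

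**Figure D5:**
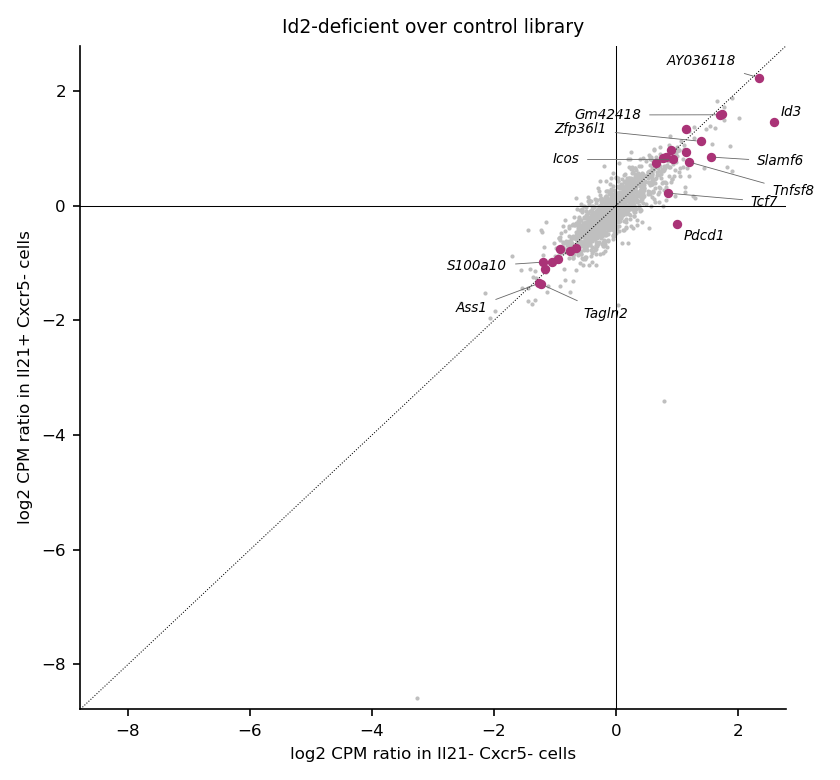
Log2 CPM ratio of the Id2-deficient over the control library in Il21- Cxcr5- (x axis) and Il21+ Cxcr5- cells (y axis) for 1535 genes with at least 200 UMIs in each comparison; grey dots are genes, purple dots the leading genes and genes named in the text, and the dotted line marks equal ratios. Icos (0.94 and 0.81) and AY036118 (2.34 and 2.24) lie near the dotted line, while Pdcd1 (1.01 and -0.31) and Id3 (2.6 and 1.45) lie below it.

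T cell receptor β variable segments were read in 60 control and 62 Id2-deficient Il21+ Cxcr5- cells. Trbv13-2 was the most frequent in the control, in 12 of 60 cells (20%, 10.8% to 32.3%), followed by Trbv1 in 8 and Trbv26 in 7. Trbv20 came first in the Id2-deficient library, in 10 of 62 cells. The counts are small, segments are close copies of each other, and a 3′ library reads them only in part.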

How the data were processed

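The deposited count matrices give whole-number UMI counts per gene and barcode for each of the 2 libraries, with 32285 genes. Per the file headers they were written by Cell Ranger 5.0.1, whereas the submitters' processing notes name Cell Ranger 1.3 and the mm10 build. Barcodes with fewer than 200 genes or over 10% of UMIs from mt- genes were left out here, no doublet caller was run, and no clustering was used. UMIs were summed over the cells of each class in each library and scaled to CPM. Deposited barcodes numbered 4937 (control) and 2459 (Id2-deficient). The Il21+ Cxcr5- cells held 959081 and 1223009 UMIs in sum, which sets the width of the intervals.

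A CPM ratio has an exact conditional binomial interval. There is no test, because cells of 1 library are not replicates. Genes used to choose the cells were left out of counts, and where a gene had 0 UMIs in a class, a list's median was also computed at 3 UMIs. For each comparison 12 genes were named for their high ratio, ranked by its lower bound, and 12 for their low ratio, ranked by its upper bound (for Il21+ Cxcr5- against Il21- Cxcr5- cells, the weaker of both libraries). Left out of that choice were mt-, ribosomal protein, receptor and immunoglobulin genes and any gene with 10% or more of its UMIs in 1 cell. From each list the highest, lowest and most abundant member were added, with the cytokine genes, Id2 and the 10 genes most like Il21. Other genes named were chosen after their values were seen. The rule for the cells and the gene lists were chosen with earlier results of these data known.

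Gene positions are from GENCODE M21 (GRCm38), which matched 32235 of 32285 gene IDs. Python 3.11.15, numpy 2.4.6, scipy 1.17.1, pandas 2.3.3 and matplotlib 3.10.9 were used, and the scripts were tested on simulated data. Alternatives changed the Il21 minimum, the UMI filter, the totals, the depth weighting and the cells kept. Some genes of the lists are not reported here.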

Additional observations from a re-analysis of the deposited data

Results flagged for a closer look

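Cdc20, an activator of the anaphase-promoting complex, went opposite ways in the libraries. It was at 31.3 CPM in Il21+ Cxcr5- against 18.4 CPM in Il21- Cxcr5- cells of the control, a log2 ratio of 0.77 (0.18 to 1.3), and at 8.18 against 19.2 CPM in the Id2-deficient library, a log2 ratio of -1.23 (-2.32 to -0.31). The Il21+ Cxcr5- classes gave 30 and 10 UMIs of Cdc20, and the difference between the libraries was not tested.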

How the results depend on the processing

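Of the shares and counts of genes, 143 values under an alternative stayed within the limits set for them and 51 moved. Of the list medians and single genes, 7035 stayed, 423 moved and 8 that had been past 1.5-fold changed sign. Il21+ Cxcr5- cells with at least 2 Il21 UMIs were 0.969% of control and 3.20% of Id2-deficient T cells. After thinning to 2000 and to 1000 UMIs the shares were 1.46% and 0.855% in the control and 5.82% and 3.94% in the Id2-deficient library. Of Il21+ cells, those without Cxcr5 were then 80.0% and 83.3% in the control and 76.9% and 91.7% in the other library, and 33.3% there with at least 2 Il21 UMIs.

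The UMI filter changes by construction how many genes are counted. Against Il21- Cxcr5- cells, control counts were 846 higher and 787 lower with at least 200 UMIs, 2716 higher with no filter, and 941 higher and 2271 lower without the top cell of each gene, which takes more from the smaller class. Id2-deficient counts were 255 higher and 239 lower at 200 UMIs, 2127 and 1453 with no filter, and 1258 lower at 20 UMIs, with 1418 lower for at least 2 Il21 UMIs. In both libraries together, 163 genes were higher and 135 lower at 200 UMIs, 863 higher with no filter, 480 lower at 20 UMIs, 556 lower with at least 2 Il21 UMIs, and 254 higher and 519 lower without top cells. Against Il21+ Cxcr5+ cells, control counts were 778 and 831 at 20 UMIs, 43 and 24 at 200, and 1570 and 2262 with no filter, with 163 higher without cells above 20000 UMIs and 174 lower with at least 2 Il21 UMIs. Id2-deficient counts were 573 and 923, 30 and 59, and 1293 and 1677 under the same filters. Between libraries, 1215 and 1116, 110 and 175, and 2229 and 2015 genes were higher and lower, and 355 and 374 with at least 2 Il21 UMIs.

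The 8 values past 1.5-fold that changed sign were these. The cell cycle median against Il21- Cxcr5- cells was -0.72 in the Id2-deficient library without cells above 20000 UMIs, and the Th17 median against control Il21+ Cxcr5+ cells was -0.00309 with at least 2 Il21 UMIs. Olfr524 was at -1.16 against Id2-deficient Il21- Cxcr5- cells under that minimum, and Il2 at -0.36 in the control without its top cell. Without cells holding markers of other types, Il22 was at -0.39 against control Il21+ Cxcr5+ cells, and the ratios between libraries of Il22 and Il17f were 0.19 and 0.79. Without top cells that of Il17f was 0.091. List medians within 1.5-fold changed sign more often. Counting list medians of any size, 15 of 78 changed sign with at least 2 Il21 UMIs. With the mean of per-cell CPM 7 of 80 did, and without cells above 20000 UMIs 6 of 80. Each other alternative changed the sign of at most 4. The cause of these changes was not tested. No paired analysis was possible because there is 1 library per genotype.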
